A study of Mus musculus with 7 samples.

Results

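The enzymes described here make eicosanoids, the lipid mediators derived from arachidonic acid, and comprise 10 genes chosen by name: *Alox5ap*, *Alox5*, *Lta4h*, *Ltc4s*, *Ptgs1*, *Ptgs2*, *Ptges*, *Hpgds*, *Tbxas1* and *Alox15*. All 10 were among the 16047 genes of the table, and 7 of them had a mean of at least 1 RPKM (reads scaled to transcript length and library size) over the libraries and were tested. Neutrophils gated as CD11b+Ly6CloCX3CR1-GFP-Ly6G+ were sorted, 50000 per liver, from perfused livers of male C57BL/6 mice aged 8 to 12 weeks. In every mouse acetaminophen-induced liver injury (AILI) had been started 24 h earlier with 300 mg/kg of acetaminophen after a 12 h fast. The 4 control mice (PBS replicates 5 to 8) were injected with PBS. The other 3 (MC-21 replicates 2 to 4) were injected with 400 µL of medium conditioned with MC-21, an antibody to CCR2 that ablates Ly6Chi monocytes, at 29 µg/mL. Both schedules began 12 h before acetaminophen and were repeated every 24 h, and no group received control medium or a control antibody. The strain label does not name the reporter allele to which the GFP gate refers. In a transcript of 1 kb, 1 RPKM stood for 2.66 to 3.96 reads in the PBS libraries, and for 3.57, 1.59 and 2.78 reads in MC-21 replicates 2 to 4. The comparison asks how neutrophils of the injured liver differ when Ly6Chi monocytes are missing.

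Arachidonic acid enters 2 main routes. In the first, 5-lipoxygenase (*Alox5*), with the help of the membrane protein FLAP (*Alox5ap*), forms leukotriene A4, which leukotriene A4 hydrolase (*Lta4h*) turns into the neutrophil chemoattractant leukotriene B4 and leukotriene C4 synthase (*Ltc4s*) into leukotriene C4, the parent of the cysteinyl leukotrienes. In the second, the cyclooxygenases COX-1 (*Ptgs1*, found in many cells at rest) and COX-2 (*Ptgs2*, induced by inflammatory stimuli) form prostaglandin H2, from which *Ptges*, *Hpgds* and *Tbxas1* make prostaglandin E2, prostaglandin D2 and thromboxane A2. Neutrophils are a well-known source of leukotriene B4.

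RefSeq start-site windows (assembly GRCm38.p6, 250 bases before to 50 after the start) were found for 8 of the 10 genes, all but *Alox5ap* and *Alox15*. The 250 bases before the start are shown for *Ltc4s*, the tested enzyme with the smallest p, and for *Ptgs2*, the one that varied most between mice. *Ltc4s* lies at chr11:50238533-50238782 on the minus strand and *Ptgs2* at chr1:150099781-150100030 on the plus strand, both written 5′ to 3′ along the gene, and capitals mark matches to 6 motifs searched on both strands.
Ltc4s: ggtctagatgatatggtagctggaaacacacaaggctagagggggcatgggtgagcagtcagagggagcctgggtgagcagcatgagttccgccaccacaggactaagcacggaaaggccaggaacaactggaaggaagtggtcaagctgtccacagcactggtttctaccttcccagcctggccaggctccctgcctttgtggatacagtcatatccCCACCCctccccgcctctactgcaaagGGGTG
Ptgs2: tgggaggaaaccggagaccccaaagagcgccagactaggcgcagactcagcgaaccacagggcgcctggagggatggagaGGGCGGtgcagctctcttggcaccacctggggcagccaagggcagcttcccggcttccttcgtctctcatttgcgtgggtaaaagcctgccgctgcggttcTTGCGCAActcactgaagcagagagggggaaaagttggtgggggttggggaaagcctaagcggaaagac
The capitals in *Ltc4s* are the CACCC box GGGTGG, as its reverse complement from base -32 and as written from base -5, counted from the start. The last base of the second match lies after the start and is not printed. A match to this motif was present in 31.5% of the 32851 windows of 300 bases in the RefSeq table. In *Ptgs2* they are the Sp1 box GGGCGG, from base -170, and the C/EBP palindrome TTGCGCAA, from base -69, which were found in 35.7% and 0.183% of windows. After the *Ptgs2* start, the cyclic AMP response motif TGACGT (reverse complement, from base 13) and the E-box CACGTG (from base 17) overlapped, and 7.51% and 7.15% of windows held them. The sixth motif, the TATA box TATAAA, was found in 13.6% of windows and in *Tbxas1*, with 2 matches, but in none of the other 7 members with a window. The motifs were picked after these sequences had been read, so that the matches are a description only.

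FLAP and leukotriene C4 synthase had the highest mean RPKM of the enzymes. Both were higher in all 3 MC-21 libraries than in all 4 PBS libraries, by 1.37-fold and 1.84-fold. However, neither passed the test adjusted over all genes. None of the 7 tested enzymes had an adjusted p under 0.05 (limma with Benjamini-Hochberg adjustment), where 0.625% of the 9594 genes tested did (41 lower and 19 higher). This split moved with the scaling, to 30 lower and 44 higher with libraries centred on their medians and to 29 and 26 with quantile normalization. A fold change of 2 or more together with an unadjusted p under 0.05 was found in 0 of them and in 2.70% of genes. An unadjusted p under 0.05 was found for 2 of 7, against 14.7% of genes. All MC-21 libraries were above all PBS libraries in the same 2 enzymes, against 3.10% of genes, and all were below in 0 of 7, against 10.2% of genes. By mean RPKM the order was *Alox5ap*, *Ltc4s*, *Alox5*, *Ptgs2*, *Ptgs1*, *Lta4h*, *Tbxas1*, *Alox15*, *Ptges* and *Hpgds*. The RPKM ranges of *Alox5ap*, *Ltc4s* and *Alox5* over the 7 libraries did not meet, and neither did those of *Tbxas1* and *Alox15*. Every other pair of neighbours overlapped. This order depends on transcript length, which is shortest for *Alox5ap* (852 nt) and *Ltc4s* (716 nt), in libraries that held 3′ ends. By estimated reads summed over PBS libraries, *Ptgs2* (1032) and *Alox5* (1002) were above *Ltc4s* (676). Over MC-21 libraries *Ptgs2* (879) was above *Ltc4s* (777), and *Alox5* (539) below it. The median log2 fold change was 0.06 over the 7 enzymes and -0.15 over all genes tested. The median of the enzymes rested on single libraries, since it was -0.16, -0.0025 and -0.05 without PBS replicate 5, PBS replicate 8 and MC-21 replicate 2, and 0.42 and 0.28 without PBS replicate 6 and MC-21 replicate 4. Centring each library on its median moved the median of all genes to 0.02, and fold changes are best read against that shift. Every fold change is on the log2(RPKM + 1) scale and understates the change of low genes.

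**Figure D1:**
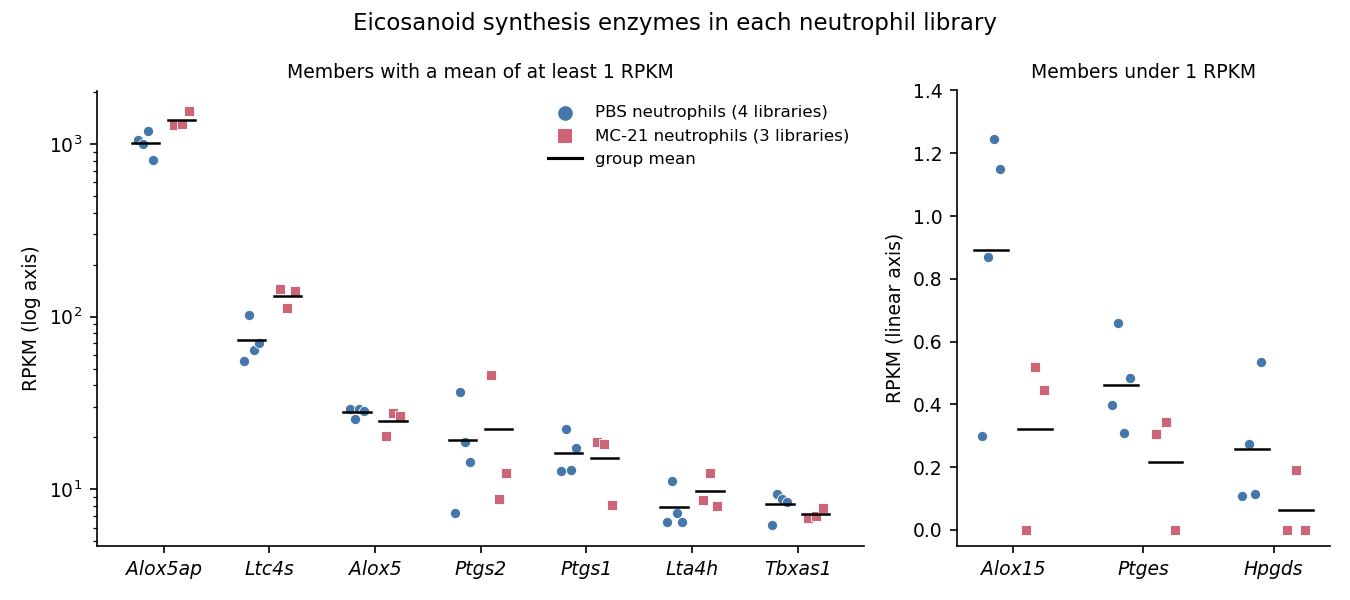
RPKM of the 10 enzymes in each library, with 7 enzymes on a log axis (left) and the 3 with a mean under 1 RPKM on a linear axis (right); circles are the 4 PBS libraries, squares the 3 MC-21 libraries and bars the group means. *Alox5ap* (810.0 to 1544 RPKM) and *Ltc4s* (55.3 to 145 RPKM) sit above the other enzymes and separate by group, whereas *Ptgs2* (7.30 to 45.8 RPKM) spreads widely within both groups.

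*Alox5ap* (mm9 chr5:150076634-150099621, plus strand) ranked 56 of 16047 genes by mean RPKM. Its level was 1047, 997, 1178 and 810.0 RPKM in PBS replicates 5 to 8, and 1289, 1299 and 1544 RPKM in MC-21 replicates 2 to 4. The lowest MC-21 library was above the highest PBS library. The means were 1008 ± 153 RPKM (SD, n = 4) and 1377 ± 144 RPKM (SD, n = 3). Their difference was 0.46 on the log2 scale (SE 0.15, 95% interval 0.12 to 0.79), with a limma p of 0.0127 and an adjusted p of 0.224. Between 1762 and 3922 reads stood behind each value, so that counting error was small beside the spread between mice.

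*Alox5* (mm9 chr6:116360095-116411196, minus strand), the enzyme that FLAP serves, was steady by comparison. It measured 29.2, 25.5, 29.3 and 28.2 RPKM in PBS neutrophils and 20.4, 27.6 and 26.6 RPKM in MC-21 neutrophils. The groups overlapped, and the lowest value belonged to MC-21 replicate 2. This gave a log2 difference of -0.18 (SE 0.16, adjusted p = 0.647, limma), close to the median of all genes, and of -0.05 without MC-21 replicate 2.

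Since a ratio within a library does not depend on the scaling between libraries, FLAP was also set against 5-lipoxygenase. The ratio of *Alox5ap* to *Alox5* RPKM was 35.9, 39.1, 40.3 and 28.7 in PBS neutrophils and 63.2, 47.2 and 58.1 in MC-21 neutrophils. All 3 MC-21 ratios exceeded all 4 PBS ratios. On the log2 scale the ratio was 5.11 ± 0.22 (SD, n = 4) against 5.74 ± 0.21 (SD, n = 3), a difference of 0.63 (two-sided exact permutation p = 0.0286, the smallest p that 35 arrangements of 7 libraries can give). It was the smaller p of 2 such ratios tested, with a Benjamini-Hochberg adjusted p of 0.0571. Both ratios were chosen with earlier results of these data known, and *Alox5ap* alone already separated the groups. The size of such ratios depends on the transcript lengths used for RPKM, and the libraries held the 3′ ends of transcripts.

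*Ltc4s* (mm9 chr11:50049971-50052118, minus strand) showed the largest difference of the 7 enzymes. PBS replicates 5 to 8 had 55.3, 102, 64.4 and 70.4 RPKM, and MC-21 replicates 2 to 4 had 145, 112 and 140.0 RPKM. The groups did not overlap, but PBS replicate 6 came close to MC-21 replicate 3. The means were 73.0 ± 20.2 RPKM (SD, n = 4) and 132 ± 17.5 RPKM (SD, n = 3), a log2 difference of 0.88 (SE 0.21, 95% interval 0.41 to 1.35). The limma p was 0.00207, rank 180 of 9594 genes, and the adjusted p was 0.110. Without PBS replicate 6 the difference was 1.05 and the adjusted p 0.0318, whereas over all alternatives the adjusted p ran from 0.0318 to 0.297. Each value rested on 110 to 370 reads. An exon of *Ltc4s* overlaps the opposite-strand gene Gm16641, whose reads cannot be told apart from those of *Ltc4s* if counting ignored strand.

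*Lta4h* (mm9 chr10:92916141-92947641, plus strand) competes with *Ltc4s* for leukotriene A4. Its level was 6.48, 11.2, 7.28 and 6.48 RPKM in PBS neutrophils and 8.67, 12.5 and 8.01 RPKM in MC-21 neutrophils. PBS replicate 6 and MC-21 replicate 3 were the highest, and the groups overlapped. On the log2 scale the difference was 0.28 (SE 0.23, 95% interval -0.24 to 0.81, limma adjusted p = 0.623) on 37 to 77 reads per library, and it was 0.11 without MC-21 replicate 3 and 0.45 without PBS replicate 6. The ratio of *Ltc4s* to *Lta4h*, examined after the values had been seen and not tested, was 8.55, 9.11, 8.84 and 10.9 in PBS neutrophils and 16.7, 9.01 and 17.5 in MC-21 neutrophils. MC-21 replicate 3 lay within the PBS range and the other two above it.

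**Figure D2:**
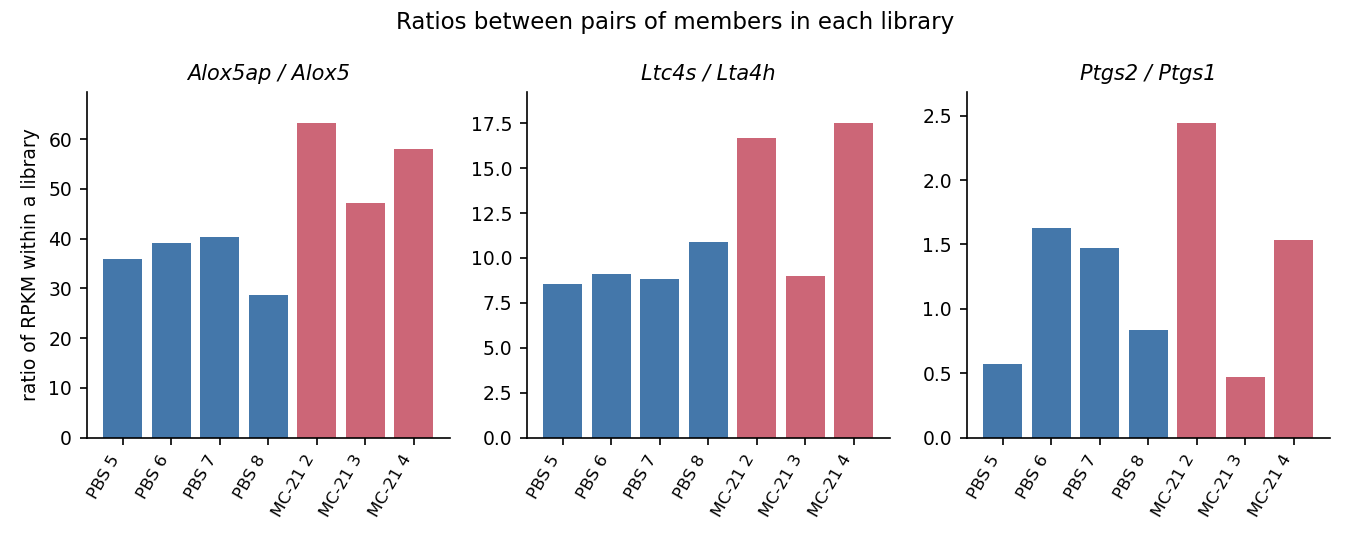
Ratios of RPKM between pairs of enzymes within each library, on linear axes that start at 0; each bar is 1 library, PBS in blue and MC-21 in red. *Alox5ap* to *Alox5* is above the PBS range in 3 of 3 MC-21 libraries, *Ltc4s* to *Lta4h* in 2 of 3, and *Ptgs2* to *Ptgs1* in 1 of 3.

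The cyclooxygenases did not separate the groups. *Ptgs2* (mm9 chr1:151947254-151955140, plus strand), whose promoter is shown above, measured 7.30, 36.4, 18.9 and 14.4 RPKM in PBS neutrophils and 45.8, 8.73 and 12.5 RPKM in MC-21 neutrophils. The highest library, MC-21 replicate 2, was 6.27 times the lowest, PBS replicate 5, and both groups held high and low mice. Its SD within groups was 1.03 on the log2 scale, above that of 98.6% of genes tested. MC-21 minus PBS, the log2 value was 0.06 (SE 0.59, 95% interval -1.26 to 1.38, limma adjusted p = 0.972), so that a change of 2-fold in either direction lies inside the interval. The value turned to -0.62 without MC-21 replicate 2 and to -0.30 without PBS replicate 5, and it was 0.52 without MC-21 replicate 3. The values rested on 58 to 677 reads per library.

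*Ptgs1* (mm9 chr2:36085946-36107792, plus strand) measured 12.7, 22.4, 12.9 and 17.3 RPKM in PBS neutrophils and 18.8, 18.4 and 8.16 RPKM in MC-21 neutrophils. MC-21 replicate 4 was the lowest of all and PBS replicate 6 the highest. The log2 difference was -0.15 (SE 0.31, adjusted p = 0.849, limma), and it turned to 0.01 when libraries were centred on their medians. Single libraries moved it further, to 0.21 without MC-21 replicate 4 and to -0.34 without MC-21 replicate 2. The ratio of *Ptgs2* to *Ptgs1* was 0.573, 1.63, 1.47 and 0.836 in PBS neutrophils and 2.44, 0.474 and 1.53 in MC-21 neutrophils. On the log2 scale it differed by 0.21 (two-sided exact permutation p = 0.771, 0.771 after adjustment over the 2 ratios), and without PBS replicate 5 or MC-21 replicate 2 the sign changed, to -0.05 and -0.27.

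Of the 3 terminal synthases of the cyclooxygenase route among the 10 enzymes, thromboxane A synthase (*Tbxas1*, mm9 chr6:38825403-39034584, plus strand) was the one with a mean of at least 1 RPKM. It measured 6.22, 9.41, 8.74 and 8.42 RPKM in PBS neutrophils and 6.79, 6.99 and 7.82 RPKM in MC-21 neutrophils. The MC-21 values lay inside the PBS range. This gave a log2 difference of -0.15 (SE 0.18, adjusted p = 0.733, limma), close to the median of all genes, and the value became 0.01 after quantile normalization or centring. It was -0.27 without PBS replicate 5 and -0.09 without PBS replicate 6.

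The other two of these synthases and *Alox15* rested on few reads and were not tested. *Ptges* (mm9 chr2:30744991-30785383, minus strand) rested on about 4, 8, 3 and 7 reads in the PBS libraries, and on 4, 2 and 0 in the MC-21 libraries. *Hpgds* (mm9 chr6:65067287-65094902, minus strand) had about 1, 3, 1 and 7 reads against 0, 1 and 0. *Alox15* (mm9 chr11:70157654-70165533, minus strand), a lipoxygenase of eosinophils and resident macrophages, had about 2, 7, 8 and 11 reads against 0, 2 and 3, or at most 1.25 RPKM in PBS neutrophils and 0.521 RPKM in MC-21 neutrophils. The groups overlapped for all 3 genes. In a fit of every gene without the filter their log2 differences were -0.27, -0.23 and -0.51, with adjusted p-values (limma) of 0.483, 0.572 and 0.473.

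Some genes followed an enzyme closely over the 7 libraries. Pearson's r of log2(RPKM + 1) is given here for the 3 genes with the highest r among all genes tested, as a description without a test. For *Ltc4s* they were *Car4* (r = 0.989, n = 7), *Deb1* (0.988) and *Bhlhe40* (0.986). *Car4*, a membrane carbonic anhydrase, measured 0.278, 6.01, 0.868 and 2.14 RPKM in PBS neutrophils and 47.8, 16.0 and 33.5 RPKM in MC-21 neutrophils, with PBS replicate 6 the highest PBS library and MC-21 replicate 3 the lowest MC-21 library, as for *Ltc4s*. For *Alox5ap* they were *Pi16* (0.975), *Wfdc21* (0.964) and *Mustn1* (0.948), and for *Lta4h* *Cdc42ep3* (0.982), *Grhpr* (0.960) and *Mrgpre* (0.957). *Ptgs2* was added after its values had been seen, and its nearest genes were *Klra17* (0.982), *Cnot6* (0.977) and *Fam13b* (0.977). Each r was picked as the highest among the 9594 genes, over libraries that include the difference between the groups.

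The genes around these enzymes were described in 5 lists, and in 0 of the 44 genes tested in them was the adjusted p under 0.05 (limma). The list for release and storage of arachidonic acid was represented by 17 genes, of which 10 were tested, with a median log2 fold change of -0.0048. At an unadjusted p under 0.05, 1 was higher (*Acsl1*) and 0 lower, where 14.7% of all genes had such a p. The median became 0.16 with libraries centred, and ran from -0.07 to 0.06 as single libraries were left out. Its most abundant genes were *Anxa1* (193 ± 52.7 against 221 ± 36.4 RPKM, mean ± SD, PBS against MC-21), which codes for annexin A1, and the lysophospholipid acyltransferases *Mboat7* (81.2 ± 7.44 against 83.7 ± 6.52 RPKM) and *Lpcat2* (57.9 ± 3.50 against 52.6 ± 4.19 RPKM). *Pla2g4a*, the cytosolic phospholipase A2 that releases arachidonic acid in most leukocytes, was at 1.23 RPKM or less in every library, and listed at 0 in 3 of them.

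Among 5-lipoxygenase partners and kinases, 5 of 6 genes were tested, 0 had an unadjusted p under 0.05 and the median was -0.16, or 0.0028 with libraries centred. It was -0.24 without PBS replicate 5, and -0.09, -0.07 and -0.10 without PBS replicates 7 and 8 and MC-21 replicate 3. *Cotl1*, which codes for the 5-lipoxygenase-binding protein coactosin-like 1, was the most abundant (486 ± 74.5 against 428 ± 34.95 RPKM), followed by the kinases *Mapkapk2* (126 ± 18.4 against 112 ± 9.16 RPKM) and *Mapk14* (26.6 ± 4.21 against 27.7 ± 2.59 RPKM).

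Of the 19 further synthases and processing enzymes, 13 were tested, with a median of -0.21 (-0.31 without PBS replicate 6, and -0.04 with libraries centred), 2 of them lower (*Mgst3* and *Fam213b*) and 1 higher at an unadjusted p under 0.05 (14.7% of all genes). With libraries centred, *Fam213b* no longer had such a p. The higher one was *Ggt5*, a gamma-glutamyltransferase that converts leukotriene C4 to D4. It measured 13.03, 12.9, 19.6 and 11.4 RPKM in PBS neutrophils and 30.2, 24.3 and 27.7 RPKM in MC-21 neutrophils. The groups did not overlap, as for *Ltc4s*, the enzyme just before it in the route. On the log2 scale the difference was 0.92 (SE 0.20, 95% interval 0.47 to 1.37, limma adjusted p = 0.0822), and over all alternatives the adjusted p stayed between 0.0531 and 0.232. Exons of *Ggt5* overlap the same-strand gene Gm17269, whose reads could not be told apart from its own. *Mgst3*, a microsomal glutathione transferase, measured 1.71, 1.89, 2.96 and 4.37 RPKM in PBS neutrophils and 0, 0.989 and 1.13 RPKM in MC-21 neutrophils, a log2 difference of -1.15 (adjusted p = 0.186, limma) on low values. *Mgst1* (119 ± 23.3 against 128 ± 20.2 RPKM), a transferase of the same family, and the carbonyl reductase *Cbr1* (23.3 ± 4.38 against 17.6 ± 5.93 RPKM) overlapped between groups. *Ptges3* and *Ptges2*, which code for further prostaglandin E synthases, were named after their values had been seen. *Ptges3* measured 9.62, 30.9, 30.4 and 6.85 RPKM in PBS neutrophils and 29.2, 12.2 and 9.20 RPKM in MC-21 neutrophils, and *Ptges2* was at 1.93 to 5.95 RPKM over the 7 libraries. Both overlapped between groups, with log2 differences of -0.09 and -0.27 (limma adjusted p = 0.957 and 0.721), and both were detected where *Ptges* was at a few reads. The value of *Ptges3* changed sign with the scaling, to 0.07 with libraries centred, and ran from -0.55 to 0.23 as single libraries were left out, while that of *Ptges2* ran from -0.48 without PBS replicate 5 to -0.04 without MC-21 replicate 3.

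Inactivation and export was represented by 11 genes, of which 10 were tested, with a median of -0.27, and 4 of them (*Ptgr1*, *Cyp4f16*, *Ephx1* and *Abcc1*) were lower and 0 higher at an unadjusted p under 0.05, against 14.7% of all genes in either direction. Centring the libraries left 1 lower (*Ptgr1*) and 1 higher (*Slco2a1*) at that threshold, and moved the median to -0.10. With a mean of at least 5 RPKM required, the median was 0.0155. *Cyp4f18*, the mouse enzyme that hydroxylates leukotriene B4 in neutrophils, was the most abundant (196 ± 29.4 against 182 ± 27.9 RPKM), ahead of the prostaglandin transporter *Slco2a1* (25.8 ± 5.27 against 31.2 ± 3.63 RPKM) and *Cyp4f13* (13.8 ± 4.85 against 17.6 ± 3.02 RPKM). Exons of *Cyp4f18* and *Mboat7* overlap genes on the opposite strand, which limits both values if counting ignored strand.

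Of 15 eicosanoid and related lipid receptors, 6 were tested, with a median of -0.12, 1 lower and 1 higher at an unadjusted p under 0.05, beside 14.7% of all genes. Centring turned this median to 0.04, and it was -0.23, -0.08 and 0 without MC-21 replicates 2, 3 and 4. *Ltb4r1*, the high-affinity receptor for leukotriene B4, measured 46.8, 71.2, 71.6 and 50.8 RPKM in PBS neutrophils and 118, 77.6 and 137 RPKM in MC-21 neutrophils. The groups did not overlap, although MC-21 replicate 3 was close to the highest PBS library. MC-21 minus PBS, the log2 value was 0.86 (SE 0.23, 95% interval 0.34 to 1.38, limma adjusted p = 0.156). *Tbxa2r*, the thromboxane A2 receptor, measured 21.0, 14.2, 10.2 and 26.8 RPKM in PBS neutrophils and 3.73, 8.38 and 2.40 RPKM in MC-21 neutrophils. It was lower in all 3 MC-21 libraries, with a log2 difference of -1.75 (SE 0.39, 95% interval -2.63 to -0.88, limma adjusted p = 0.0876). *Fpr2*, which codes for a receptor of lipoxin A4 and of formyl peptides, overlapped between groups (54.0 ± 15.9 against 69.2 ± 22.2 RPKM), and its exons overlap those of *Fpr3*. The cysteinyl leukotriene receptors were low, *Cysltr1* at 0.470 RPKM or less and *Cysltr2* at 1.74 RPKM or less in every library.

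**Figure D3:**
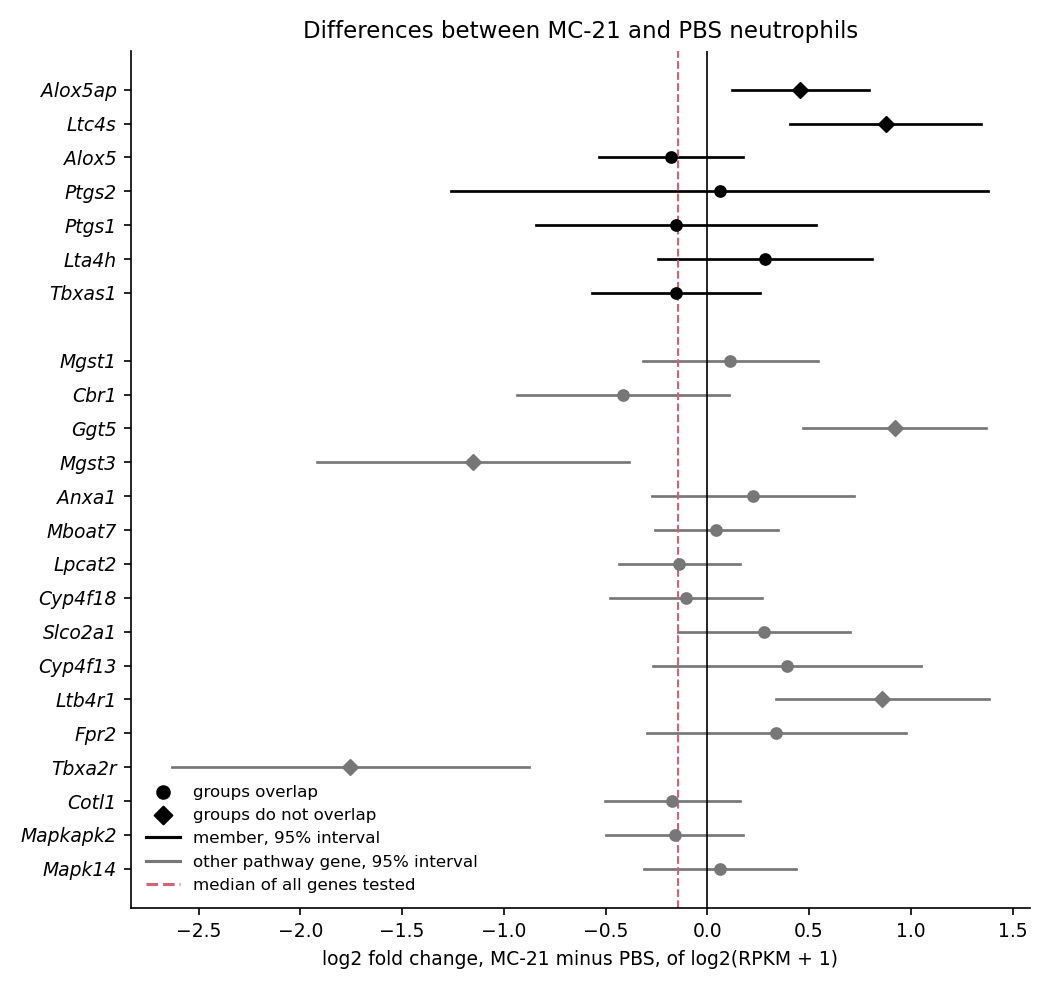
Log2 fold change (MC-21 minus PBS, of log2(RPKM + 1)) with its 95% interval for the 7 tested enzymes (black) and 16 named genes of the pathway lists (grey); diamonds mark genes whose groups do not overlap and the dashed line the median of all genes tested, -0.15. *Ltc4s* (0.88), *Alox5ap* (0.46), *Ggt5* (0.92) and *Ltb4r1* (0.86) lie to the right of 0 with intervals that exclude it, *Tbxa2r* (-1.75) and *Mgst3* (-1.15) to the left.

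Several cell types other than neutrophils express these enzymes, and in sorted bulk cells fewer cells of a type and less RNA per cell cannot be told apart. The neutrophil markers were high in every library, with a summed level of 18000 to 30450 RPKM in PBS and 27340 to 40760 RPKM in MC-21 libraries, mostly *S100a9*. Of these 10 markers, 3 were higher (*S100a8*, *S100a9* and *Retnlg*) and 1 lower (*Camp*, a secondary granule gene) at an unadjusted p under 0.05 (14.7% of all genes), while 0 passed the adjusted test. The part of this in *Alox5ap* and *Ltc4s* was not tested. Monocyte and macrophage markers summed to 254, 345, 372 and 338 RPKM in PBS and to 210, 192 and 186 RPKM in MC-21 libraries, with *Cd68* the most abundant, and 4 of 11 tested (*Ccr2*, *Fcgr1*, *Trem2* and *F13a1*) were lower and 0 higher with an adjusted p under 0.05 (limma), against 0.625% of all genes in either direction. At an unadjusted p under 0.05, 8 of the 11 were lower and 0 higher (14.7% of all genes). All 4 calls ended in the fit without a filter, with adjusted p-values (limma) of 0.0809, 0.0792, 0.0863 and 0.146. Their log2 fold changes were -1.511, -2.223, -2.745 and -1.629 in both fits. As single libraries were left out, the highest adjusted p of each was 0.0882, 0.0434, 0.0595 and 0.123. Of the 11, 10 had a negative and 1 (*Adgre1*, 0.02, but -0.0077 with a pseudocount of 0.1) a positive log2 fold change, and the part of these cells in the enzymes was not tested. Kupffer cell markers summed to 56.3 to 84.4 RPKM in PBS and 34.3 to 64.4 RPKM in MC-21 libraries, led by *Marco*, with 0 of 3 passing the adjusted test. At an unadjusted p under 0.05, 2 of the 3 (*Cd5l* and *Marco*) were lower, and 0 with libraries centred.

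Mast cells, basophils and eosinophils are known for leukotriene C4 synthase. The mast cell and basophil list, of which 8 of 11 genes had values, summed to 241 to 393 RPKM in PBS libraries. In MC-21 libraries it summed to 319 to 375 RPKM, and nearly all of both was *Hdc*. The defining markers *Cpa3*, *Cma1*, *Ms4a2* and *Fcer1a* were at 0.463 RPKM or less in every library, and *Cpa3* and *Fcer1a* were listed at 0 in 6 of 7. *Kit* (6.39 to 14.0 RPKM), *Gata2* (6.39 to 14.5 RPKM) and the basophil gene *Mcpt8* (0 to 3.67 RPKM) of the same list were present, and each overlapped between groups. Of 8 eosinophil markers listed, 5 had values, and *Epx*, *Prg2* and *Il5ra* were not among them. These 5 summed to 79.1, 69.8, 103 and 41.2 RPKM in PBS and to 39.1, 43.5 and 27.9 RPKM in MC-21 libraries, mostly *Ear2*. *Ccr3* and *Ear6* were at 0.422 RPKM or less and *Siglecf* at 8.60 to 19.5 RPKM. The part of these cells in *Ltc4s* was not tested. In both lists 0 genes passed the adjusted test, of 4 and 3 tested. *Ear2* had an unadjusted p under 0.05, with a log2 difference of -1.15 (adjusted p = 0.186, limma) and overlapping groups. It was the only gene of either list with such a p, against 14.7% of all genes.

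Platelets, which make thromboxane and carry its receptor, were represented by 10 markers that summed to 118, 136, 270.3 and 102 RPKM in PBS and to 99.0, 80.6 and 84.5 RPKM in MC-21 libraries. All 3 MC-21 sums were below all PBS sums, but this came from *Pf4*, the most abundant gene. The 9 markers without *Pf4* summed to 43.0, 19.4, 26.7 and 26.4 RPKM in PBS and to 38.0, 35.7 and 47.9 RPKM in MC-21 libraries, where the groups overlapped. The median log2 fold change of the 7 markers tested was 0.42, with 4 positive (*Itga2b*, *Itgb3*, *Gp9* and *Vwf*) and 3 negative, and it was 0.27 without PBS replicate 6 and 0.245 without MC-21 replicate 4. At an unadjusted p under 0.05, 1 was lower (*Pf4*) and 1 higher (*Vwf*), against 14.7% of all genes. *Gp5*, *Treml1* and *Tubb1* were at 0.902 RPKM or less in every library, 0 of 7 markers tested passed the adjusted test, and the part of platelets in *Tbxa2r* was not tested. Endothelial markers summed to 1361 to 2810 RPKM in PBS and 1409 to 2450 RPKM in MC-21 libraries, led by the sinusoidal gene *Clec4g*, and hepatocyte markers to 175 to 461 RPKM and 177 to 305 RPKM, led by *Apoa1*. B cell markers summed to 10.7 to 29.9 RPKM against 6.14 to 9.73 RPKM (led by *Cd79b*), T and NK cell markers to 8.74 to 13.3 RPKM against 6.05 to 11.5 RPKM (*Nkg7*), and dendritic cell markers to 8.82 to 12.4 RPKM against 6.09 to 12.0 RPKM (*Clec9a*). In these 5 lists 0 of the 22 genes tested had an adjusted p under 0.05. Of the 19 tested in the endothelial, hepatocyte, T and NK cell and dendritic cell lists, 3 (*Eng*, *Cd3d* and *Ccr7*) were lower and 0 higher at an unadjusted p under 0.05, against 14.7% of all genes. With libraries centred, *Ccr7* alone of these 3 kept such a p, and 1 endothelial gene, *Pecam1*, gained it in the higher direction. Of the 3 B cell genes tested, 2 were lower and 0 higher at that threshold, and 1 was lower with libraries centred.

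**Figure D4:**
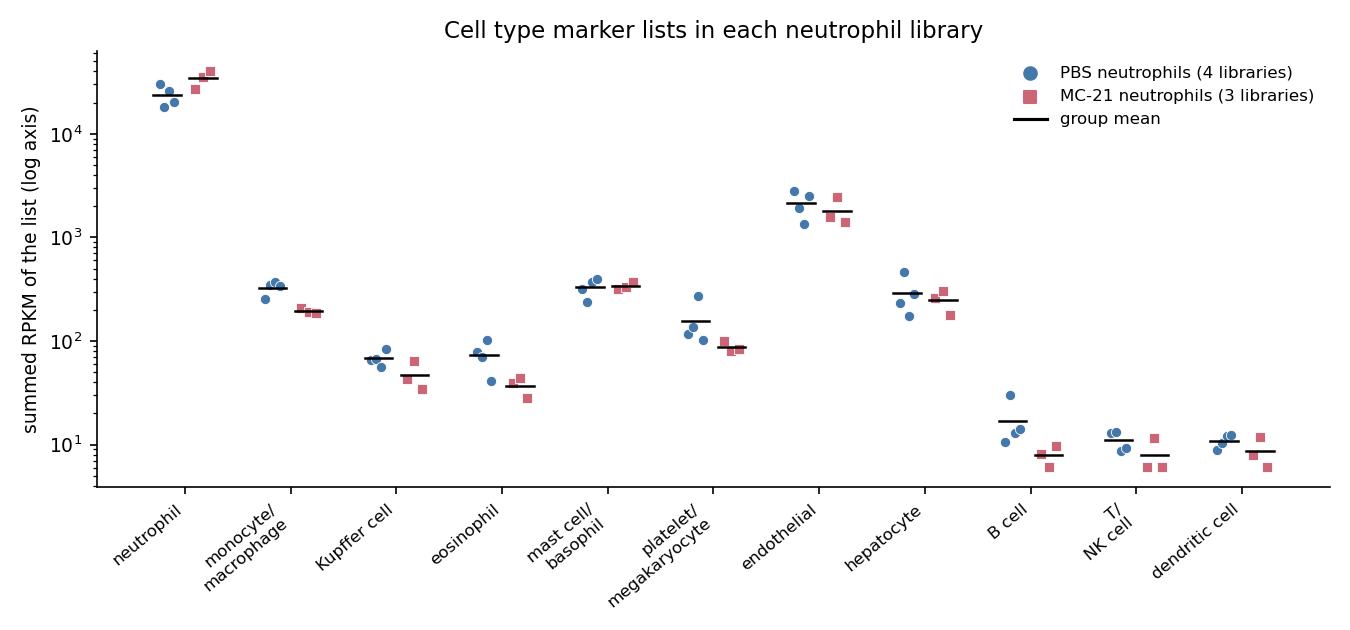
Summed RPKM of each cell type marker list in each library, on a log axis; circles are PBS, squares MC-21 libraries and bars group means. The monocyte and macrophage, platelet and B cell sums are lower in all 3 MC-21 libraries than in all 4 PBS libraries, for platelets through *Pf4* alone (the other 9 markers overlap between groups), and the neutrophil, endothelial and hepatocyte sums overlap.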

How the data were processed

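RNA-seq was performed on neutrophils of 7 livers, 1 library per mouse, so that replicates are separate mice. The libraries held 3′ ends. Alignment was to mm9 by HISAT 0.1.5, followed by SAMtools and Partek 6.6 (tools also listed in the submitters' processing notes), and the authors deposited the resulting RPKM of each gene and library. The transcript annotation, the use of strand and the handling of reads shared between genes are not given in the sources used here. RPKM divides by transcript length, which in 3′ libraries lowers long transcripts, so that levels of different genes are compared with caution.

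Read numbers were estimated from the steps between low RPKM values and the longest coding transcript of each gene, and are approximate. Positions are those of the mm9 annotation (GENCODE). The group difference in log2(RPKM + 1), PBS subtracted from MC-21, was tested by limma 3.58.1 (R 4.3.3, trended eBayes) in those 9594 genes whose mean reached 1 RPKM, with no rescaling of libraries, and p-values were adjusted over all 9594 (Benjamini-Hochberg). Ratios were compared with an exact permutation test of the absolute mean difference (two-sided) over 35 arrangements of 7 libraries. Tables and plots were made with Python 3.11.15, pandas 2.3.3, scipy 1.17.1 and matplotlib 3.10.9. The fit was tested on simulated data.

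The 10 enzymes, the pathway and marker lists and the tests were chosen with earlier results of these data known. Named are all 10 enzymes, of each pathway list the 3 most abundant genes and those with an adjusted p under 0.05 or an unadjusted p under 0.05 with a 2-fold change, the most abundant and defining genes of each marker list, and the 3 genes most like each of the 3 enzymes with the smallest p. *Acsl1*, *Ptgr1*, *Cyp4f16*, *Ephx1*, *Abcc1*, *Fam213b*, *Ptges2*, *Ptges3*, *Kit*, *Gata2*, *Mcpt8*, *Siglecf*, *Adgre1*, *Itga2b*, *Itgb3*, *Gp9*, *Vwf*, *S100a8*, *Retnlg*, *Camp*, *Cd5l*, *Eng*, *Pecam1*, *Cd3d*, *Ccr7*, *Ccr2*, *Fcgr1*, *Trem2*, *F13a1*, *Pla2g4a*, *Cysltr1* and *Cysltr2* were named after their values had been seen. Alternatives were a pseudocount of 0.1, no filter, a filter at 5 RPKM, centring on the median, quantile normalization, no trend, and leaving out each library. Platelet sums without *Pf4*, the alternatives of 10 genes named late and counts per list with centring were added after the data were seen.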

Additional observations from a re-analysis of the deposited data

How the results depend on the processing

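Of the 7 tested enzymes, *Alox5ap*, *Ltc4s*, *Lta4h* and *Alox5* kept their direction under all alternatives that were run, although *Lta4h* ranged from 0.11 to 0.45 and *Alox5* from -0.26 to -0.01 (-0.05 without MC-21 replicate 2). *Alox5ap* ranged from 0.36 to 0.62 (adjusted p 0.187 to 0.457) and *Ltc4s* from 0.76 to 1.05 (adjusted p 0.0318 to 0.297), with the one adjusted p under 0.05 at 1.05 without PBS replicate 6. *Ptgs1* changed sign when libraries were centred (0.0111) and without PBS replicate 6 (0.0045) or MC-21 replicate 4 (0.2131), and ran from -0.34 to 0.2131 as each library was left out. *Ptgs2* changed sign without PBS replicate 5 (-0.3009), PBS replicate 8 (-0.0025) or MC-21 replicate 2 (-0.6162), with a range of -0.6162 to 0.52. *Tbxas1* changed sign with quantile normalization (0.0092) and centring (0.0091). The difference in the *Ptgs2* to *Ptgs1* ratio ran from -0.2746 without MC-21 replicate 2, and -0.0491 without PBS replicate 5, to 0.85 without MC-21 replicate 3. That in the *Alox5ap* to *Alox5* ratio ran from 0.53 to 0.75 with each library left out, where the smallest exact permutation p is 0.1 (3 against 3) or 0.0667 (4 against 2), so that these tests cannot pass 0.05.

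The 60 genes with an adjusted p under 0.05 became 4 without a filter, where more genes are tested, and between 9 (without PBS replicate 8) and 102 (without PBS replicate 6) as each library was left out. Without PBS replicates 5 and 7 there were 39 and 14, and without MC-21 replicates 2, 3 and 4 there were 19, 35 and 18. The 259 genes passing both cutoffs became 60 with an adjusted p as the cutoff and, in settings added after the data were seen, 433 with a pseudocount of 0.1 and 153 with a mean of at least 5 RPKM. The cause was not tested.

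Of the other pathway genes named, signs changed for *Lpcat2* (0.0260), *Cyp4f18* (0.0587) and *Mapkapk2* (0.0028) with centring, for *Cyp4f18* (0.0240) without MC-21 replicate 2, for *Mboat7* (-0.0175) and *Mapk14* (-0.0103) without MC-21 replicate 4, for *Mapk14* (-0.0081) without PBS replicate 5 and for *Mgst1* (-0.0272) without PBS replicate 8. With each library left out, *Mgst1* ran from -0.0272 to 0.2498, *Mboat7* from -0.0175 to 0.1041, *Cyp4f18* from -0.2025 to 0.0240 and *Mapk14* from -0.0103 to 0.1336. Among genes whose alternatives were added after the data were seen, *Ptges3* changed sign with quantile normalization (0.0538) and centring (0.0740) and ran from -0.5497 to 0.2338 with each library left out, *Adgre1* changed sign with a pseudocount of 0.1 (-0.0077) and ran from -0.3933 to 0.7306, and *Hdc* ran from -0.0587 without PBS replicate 6 to 0.1829. The 4 monocyte and macrophage calls all ended without a filter. *Trem2* also lost its call without PBS replicate 8, and *Ccr2* and *F13a1* in several others. The median over the 7 tested enzymes, 0.06, was lowest without PBS replicate 5 (-0.16) and highest without PBS replicate 6 (0.42), and it was -0.15 over all 10 without a filter. Median log2 fold changes of lists moved for inactivation and export (0.0155) and eosinophils (-0.7069) with a mean of at least 5 RPKM, for monocytes and macrophages (-1.7684) and B cells (-1.2881) with a pseudocount of 0.1, and for platelets (-0.0210) and T and NK cells (-0.2312) without a filter. Small medians changed sign, for receptors without a filter (0.0296) and with quantile normalization (0.0699) or centring (0.0422), for 5-lipoxygenase partners with centring (0.0028), and for arachidonic acid supply with centring (0.1588), with quantile normalization (0.0965) and above 5 RPKM (0.035). The last ran from -0.0727 to 0.0577 with each library left out. List medians also moved for dendritic cells (0.0464) with quantile normalization and for neutrophils with quantile normalization (0.1855) and centring (0.5804). With each library left out the neutrophil median ran from 0.2361 to 0.4576 and that of T and NK cells from -0.6414 to -0.2099. The deposited RPKM and 3 or 4 mice per group limit what small differences can be seen, and *Ptges*, *Hpgds* and *Alox15* rest on few reads. No paired analysis was possible because the groups share no replicate number.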

Other observations

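*Hdc*, which codes for the histidine decarboxylase that makes histamine, was at 290, 220.3, 346 and 365 RPKM in PBS neutrophils and at 294, 309 and 356 RPKM in MC-21 neutrophils, in libraries in which *Cpa3* and *Cma1* of the mast cell and basophil list were at or near 0, and *Kit* (6.39 to 14.0 RPKM), *Gata2* (6.39 to 14.5 RPKM) and *Mcpt8* (0 to 3.67 RPKM) were present. The groups overlapped (log2 difference 0.09, limma adjusted p = 0.853). The platelet list held genes of opposite sign. *Pf4*, which codes for platelet factor 4, was at 75.0, 116, 244 and 76.0 RPKM in PBS neutrophils and 60.9, 44.9 and 36.7 RPKM in MC-21 neutrophils, whereas *Vwf*, which codes for von Willebrand factor, was at 1.19, 3.54, 4.98 and 3.17 RPKM against 10.5, 3.84 and 13.8 RPKM. Their log2 differences were -1.26 and 1.24, with limma adjusted p-values of 0.194 and 0.244. *Alox12*, a lipoxygenase known from platelets, was at 11.7, 13.4, 8.56 and 13.6 RPKM against 13.5, 12.4 and 6.997 RPKM and overlapped between the groups. These genes were picked after their values had been seen.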
